A study of Mus musculus with 30 samples.

Results

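The genes described here are 41 genes of autophagy and the lysosome, 41 of the 48440 genes in a table of liver read counts, chosen by gene symbol for their roles. Positions given below are of build mm10 with GENCODE annotation and span the whole gene, from first to last exon. They cover the machinery that starts and builds autophagosomes, the cargo receptors, the TFEB family factors and the membrane proteins and enzymes of the lysosome. Of the 41 genes, 40 passed the filter on low counts and were tested, among 16304 genes in all. The libraries came from livers of wild-type female C57BL/6 J mice that carried an osmotic pump from the age of 8 weeks, filled with ACBP/DBI protein at 2.5 mg/mL or with PBS. Acyl-CoA-binding protein, also called diazepam-binding inhibitor, is a small lipid-binding protein that is also released from cells and has been described as a regulator of appetite and autophagy. Anorexia was induced 72 hours after pump placement with CDDP, which is cisplatin, a platinum drug that crosslinks DNA, or 48 hours after it with CRS, which the labels give only by these letters. The groups, with 5 libraries each, were CDDP+ACBP (cisplatin, ACBP pump), CDDP (cisplatin, PBS pump), CRS+ACBP (CRS, ACBP pump), CRS (CRS, PBS pump), ACBP (pump alone) and PBS (pump alone). The sources used here do not give the dose of cisplatin or the time of sampling, and the 2 models began at different times after the pump. The labels do not say whether each library is a separate animal, so the p-values measure the spread between these libraries.

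Macroautophagy encloses cytoplasm in a double membrane, the autophagosome, which fuses with the lysosome, where hydrolases digest the contents. A kinase complex around ULK1 and a lipid kinase complex around Beclin 1 start the membrane, a conjugation system attaches LC3 and GABARAP proteins to it, and receptors such as p62 hold the cargo against them. The transcription factors TFEB and TFE3 are kept in the cytoplasm by mTORC1 when nutrients are plentiful and switch on many lysosomal and autophagy genes once they enter the nucleus. In liver, fasting is a classical trigger of autophagy, and hepatocytes and Kupffer cells are both rich in lysosomes. Messenger RNA levels do not measure autophagic flux, and no flux, protein or LC3 lipidation data are part of these files.

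Each library had 13957380 to 18479134 reads counted on genes. Cdkn1a, the p53 target that encodes the cell cycle inhibitor p21, lay at 5.12 to 63.2 CPM (counts scaled to a common library total) in CDDP+ACBP and 154 to 456 CPM in CDDP, against 1.81 to 10.3 CPM in ACBP and 0.688 to 6.46 CPM in PBS. Replicate 4 of CDDP+ACBP had 5.12 CPM, within the range of the ACBP and PBS libraries, so for this library the drug label could not be checked by this gene. Dbi, which encodes ACBP, ranged over 475 to 1128 CPM in CDDP+ACBP, 324 to 1168 in CDDP, 479 to 784 in ACBP and 512 to 753 in PBS, and it does not check the pump, which delivers protein. The summed CPM of 10 hepatocyte markers was 47431 to 105220 in CDDP+ACBP, 79690 to 158330 in CDDP and 79004 to 106610 in PBS, with none of them at 0. Mitochondrial transcripts took 2.74 to 3.81% of reads in CDDP, against 9.24 to 13.6% in PBS. Skeletal muscle markers summed to over 1000 CPM in 6 libraries (1 each of CDDP+ACBP, CRS, ACBP and PBS and 2 of CRS+ACBP) and brain markers to over 400 CPM in 1 more, of ACBP, and counts without these 7 libraries are given beside the results.

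Many autophagy and lysosome transcripts were at a higher level in livers of mice given cisplatin under the PBS pump. In CDDP against PBS, 21 of the 40 tested members were called higher and 5 lower by edgeR at an adjusted p under 0.05, where 23.1% of all tested genes were called higher and 18.3% lower, 41.4% in either direction. The called shares of the members were 52.5% higher and 12.5% lower. The median log2 fold change was 0.53 over the members and 0.02 over all tested genes. Ctsl, the gene of the protease cathepsin L, had the largest difference at 2.55 ± 0.44 (SE), and Tfeb the lowest at -0.91 ± 0.16. In 12 members every CDDP library lay above every PBS library, which held for 13.3% of all genes, and in 2 members, Tfeb and Mcoln1, every CDDP library lay below, which held for 11.4%. Libraries of bulk liver cannot tell fewer cells of a type from less RNA per cell.

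Among cisplatin-treated mice, 16 of these genes were called lower with the ACBP pump than with the PBS pump. This excess of lower calls was present in edgeR and DESeq2 and absent in limma voom, and it depended on the groups fitted. In CDDP+ACBP against CDDP, 16 members were lower and 4 higher, against a background of 18.8% of all genes lower and 14.9% higher. DESeq2 also called 16 members lower and 4 higher, where 3074 of 16304 genes were lower and 2870 higher. Limma voom with quality weights called 5 of 40 members lower and 5 higher. Of 16304 genes it called 2012 lower and 1518 higher, so the excess of lower calls was gone there. A fit of only the 10 libraries of both groups called 4 of 40 members lower and 2 higher. There 1243 of 14779 genes were lower and 974 higher, so little of the excess was left. Without CDDP replicate 5, edgeR called 12 of 41 members lower and 6 higher, where 2672 of 16609 genes were lower and 2170 higher. The 12 held Gpnmb, which was not tested in the main fit. Every CDDP+ACBP library lay below every CDDP library for 6 members (8.09% of all genes) and above for 3 (6.02%). In CDDP+ACBP against ACBP, the cisplatin effect under the ACBP pump, edgeR called 0 of 40 members, and 0 had an unadjusted p under 0.05; DESeq2 and limma voom also called 0. Of all genes 0.129%, or 21 genes, were called there, 0.0675% higher and 0.0613% lower, and 39 genes without CDDP+ACBP replicate 4. The members ran from -0.29 ± 0.16 (SE, log2 scale) for Ctsz to 0.37 ± 0.26 for Ulk1. The test of the difference between both cisplatin effects, the interaction, called 15 members, 12 of them lower and 3 higher under ACBP, where 11.3% of all genes were called lower, 8.38% higher and 19.7% in either direction. The contrasts CDDP against PBS, CDDP+ACBP against CDDP and the interaction share the 5 CDDP libraries, so a CDDP library that stands apart moves all of them together.

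**Figure D1:**
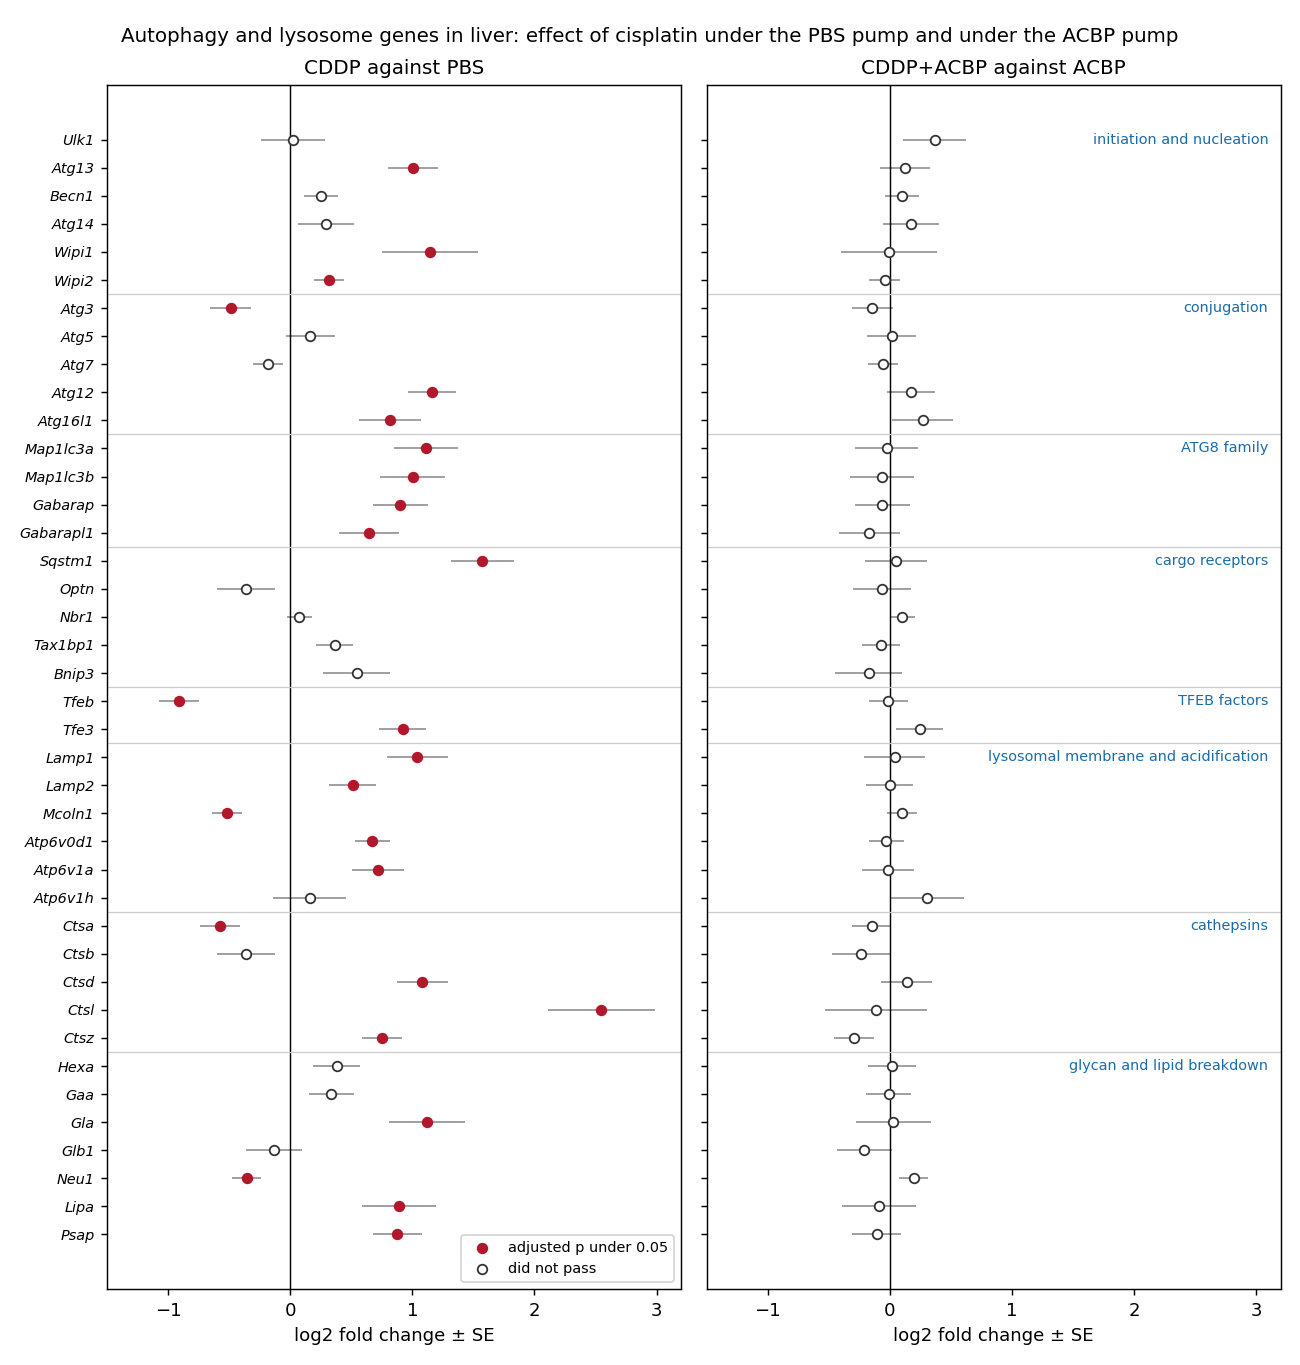
Log2 fold change with its standard error for the 40 tested members, grouped by role, for CDDP against PBS on the left and CDDP+ACBP against ACBP on the right (5 libraries a group); filled points have an adjusted p under 0.05. On the left 26 points are filled, from -0.91 for Tfeb to 2.55 for Ctsl, and on the right 0 are filled and all points lie between -0.29 and 0.37.

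CDDP replicate 5 stood apart from the other CDDP libraries for many members. Among the 21 members called higher, it was the highest CDDP library for 15, or 71.4%, compared with 47.8% of all genes called higher. Its level was 7.18 times the median of the other 4 CDDP libraries for Wipi1, 5.09 times for Ctsl, 4.17 times for Map1lc3b and 3.42 times for Atg16l1. The same library was low for other lysosomal genes, at 0.229 times that median for Lipa, 0.354 times for Atp6v1a and 0.465 times for Gla. It also differed as a whole: its TMM factor was 0.701, against 0.972 to 1.11 in the other 4 CDDP libraries, its muscle marker sum 904 CPM, against 14.7 to 336, its brain marker sum 254 CPM, against 68.8 to 108, and its Dbi and stellate levels were the lowest of the group. Of the 10 brain markers, Snap25, Stmn2 and Mobp were at 0 in every CDDP library, and the brain sum was 161 to 242 CPM in PBS. The muscle sum of CDDP replicate 5 lies under the limit of 1000 CPM, so this library is not among the 7 libraries. Without CDDP replicate 5, 18 of 41 members were called higher and 5 lower, where 3397 of 16609 genes were higher and 2781 lower. Gpnmb, not tested in the main fit, passed the filter there and was among the higher ones. The median over the members was 0.30 in place of 0.53. Without the 7 libraries rich in muscle or brain transcripts, 18 were higher, Gpnmb again among them, and 4 lower. The count over all genes in that fit is not given here. When only the 10 libraries of both groups were fitted, 14 of 40 members were higher and 3 lower, where 2700 of 14790 genes were higher and 2089 lower. Calls thus became fewer over all genes as well in that fit and without CDDP replicate 5.

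Markers of other liver cells moved in the same libraries. The summed CPM of 15 Kupffer cell and macrophage markers was 215 to 310.3 in CDDP+ACBP and 268 to 391 in CDDP, against 456 to 554 in ACBP and 394 to 479.6 in PBS, and 7 of the 15 were lower and 2, Marco and Trem2, higher in CDDP against PBS. The sum of 9 neutrophil and monocyte markers was 24.1 to 87.7 in CDDP, against 8.19 to 9.99 in PBS, with 3 of 6 tested markers higher, namely S100a8, S100a9 and Chil3. Stellate cell markers summed to 136 to 295 CPM in CDDP, against 356 to 719.5 in PBS, and 5 of 10 were lower. Sinusoidal endothelial markers summed to 164 to 262 CPM in CDDP, against 267 to 344 in PBS, with 5 of 10 lower and 1 higher, and B and T cell markers to 1.17 to 5.10 CPM in CDDP, against 9.71 to 18.6 in PBS, with 7 of 10 lower. No gene of these lists was at 0 in every library of a group. In CDDP+ACBP the stellate sum was 336 to 508 CPM, with 4 of 10 markers higher than in CDDP, the endothelial sum 241 to 359.7 CPM, with 4 of 10 higher and 1 lower, and the B and T cell sum 8.44 to 24.4 CPM, with 7 of 10 higher. The neutrophil and monocyte sum was 6.35 to 16.04 CPM in CDDP+ACBP, with 3 of 6 lower than in CDDP, and of the 15 macrophage markers 2 were higher and 4 lower. Mitochondrial transcripts took 5.43 to 12.6% of reads in CDDP+ACBP. The stellate, B and T cell, neutrophil and mitochondrial values did not overlap between CDDP+ACBP and CDDP. The part of these cells, and of the mitochondrial share, in the levels of the members was not tested.

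**Figure D2:**
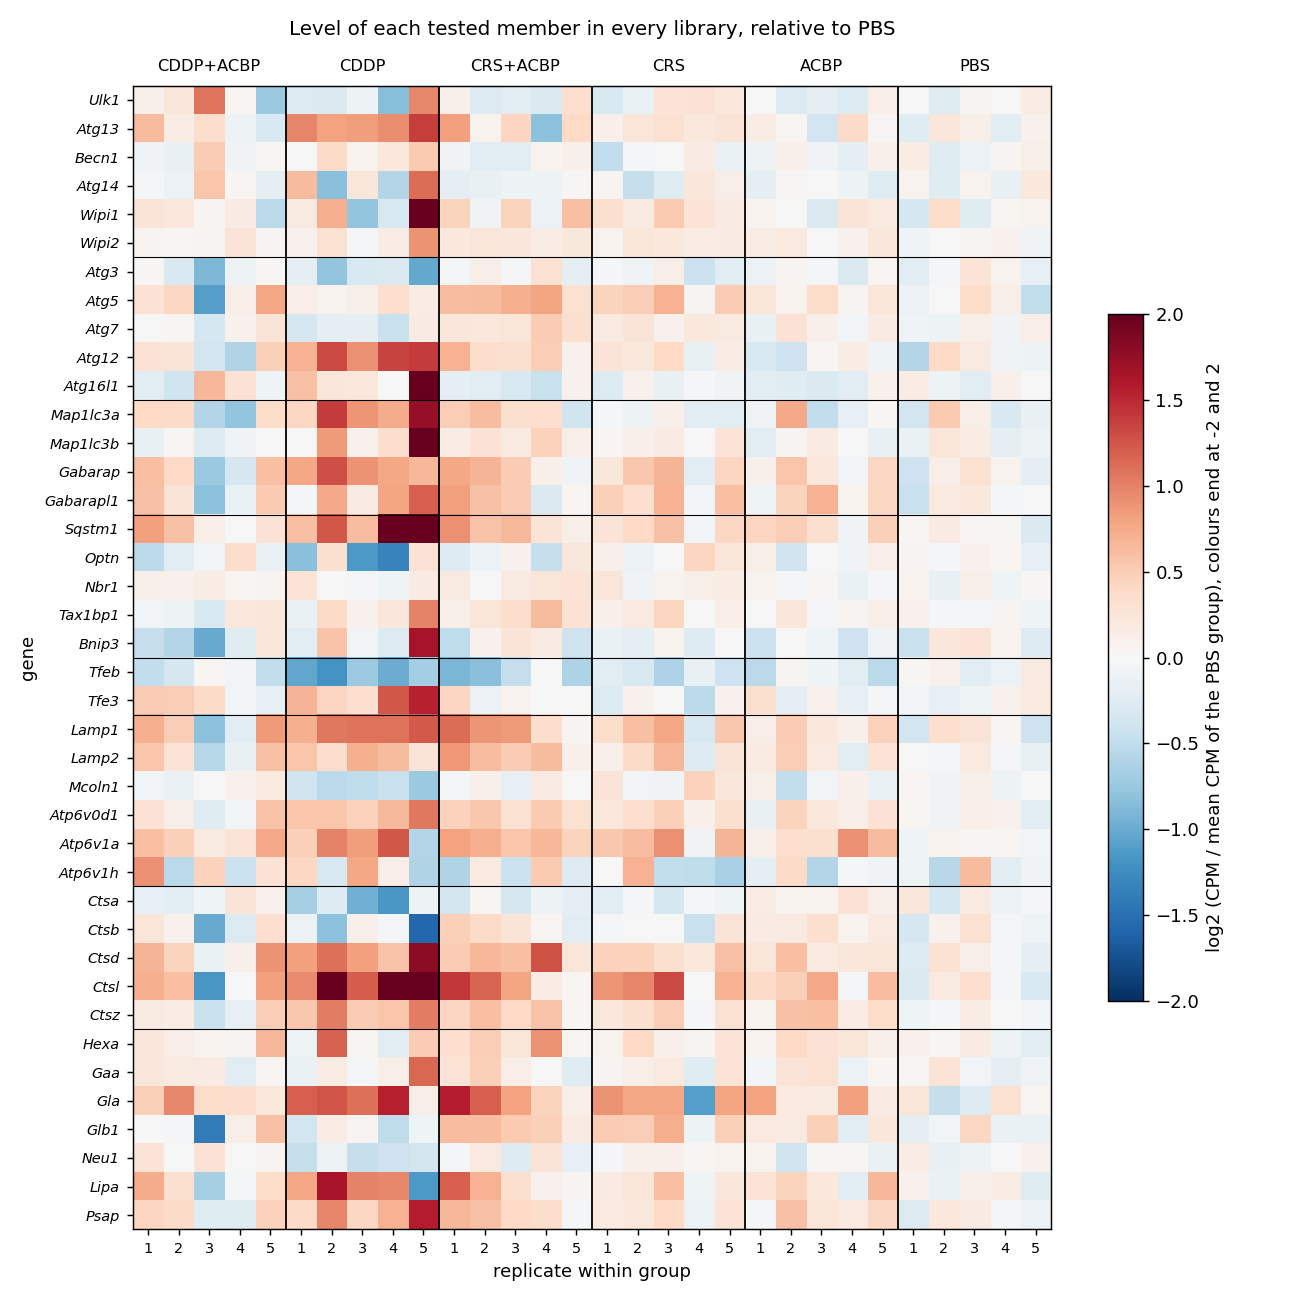
Level of each tested member (rows, ordered by role) in each of the 30 libraries (columns, by group and replicate) as log2 of CPM over the mean CPM of the PBS group; red is higher, blue lower. The CDDP block holds the deepest reds, for Ctsl, Sqstm1 and, in replicate 5, Wipi1, Atg16l1 and Map1lc3b, and Tfeb and Mcoln1 are blue in all 5 CDDP libraries.

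Of the 6 genes that start the autophagosome, 3 were higher in CDDP than in PBS and 0 lower. Atg13 (ENSMUSG00000027244, chr2:91674618-91710576, minus strand), which encodes a subunit of the ULK1 kinase complex, had 50.9, 36.4, 41.7, 30.6 and 26.6 CPM in CDDP+ACBP, 64.8, 57.5, 58.5, 62.5 and 85.4 CPM in CDDP and 27.7, 38.2, 35.5, 27.9 and 34.8 CPM in PBS. All CDDP libraries lay above all libraries of the other 2 groups. Its log2 fold change was 1.0 ± 0.20, adjusted p = 0.000327 in CDDP against PBS and -0.82 ± 0.20, adjusted p = 0.00294 in CDDP+ACBP against CDDP. The interaction was -0.88 ± 0.29, adjusted p = 0.0307, a call that was lost without CDDP+ACBP replicate 4 or 5 or CDDP replicate 5 or ACBP replicate 4 or PBS replicate 1 or 4 (log2 fold changes of -0.77 to -0.83, adjusted p = 0.0546 to 0.062). Ulk1, the kinase itself, averaged 130.2 ± 60.1 CPM in CDDP+ACBP, 111 ± 58.7 CPM in CDDP and 109 ± 10.3 CPM in PBS (SD, n = 5 each) and did not pass, with a log2 fold change of 0.02 ± 0.26 in CDDP against PBS.

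Wipi1 and Wipi2 encode proteins that read the phosphoinositide made at the growing membrane. Wipi1 had 15.98, 15.5, 13.9, 14.9 and 9.20 CPM in CDDP+ACBP, 15.1, 22.01, 7.74, 10.7 and 92.6 CPM in CDDP and 10.47, 17.3, 11.2, 13.8 and 14 CPM in PBS. A single CDDP library stood far above the rest, and the other 4 overlapped with PBS. The call in CDDP against PBS (1.14 ± 0.39, adjusted p = 0.0214) was lost without CDDP replicate 5 (0.06, adjusted p = 0.864) and without PBS replicate 1 (1.06, adjusted p = 0.0512) and turned negative in limma voom with quality weights (-0.25, adjusted p = 0.417). Wipi2 was called at 0.32 ± 0.13, adjusted p = 0.0441, a call lost in each of 7 alternatives and without CDDP replicate 2 or 5 or PBS replicate 1, 2, 3, 4 or 5 (log2 fold changes of 0.13 to 0.34, adjusted p = 0.0504 to 0.291), and CDDP replicate 5 was again its highest library at 147 CPM. Becn1, the Beclin 1 gene, and Atg14, which steers its lipid kinase complex to autophagy, did not pass in CDDP against PBS, at 0.25 ± 0.14 and 0.29 ± 0.23. Of the exon bases of Becn1, 43.9% overlap those of Cntd1 on the opposite strand; whether counting used the strand is not given in the sources used here, so reads of such pairs cannot be told apart.

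Among the 5 genes of the conjugation system, 2 were higher in CDDP and 1 lower. Atg12 encodes the ubiquitin-like protein that is joined to ATG5. It had 16.1, 15.8, 10.2, 8.71 and 18.3 CPM in CDDP+ACBP, 21.4, 32.98, 24.97, 33.8 and 34.8 CPM in CDDP and 8.79, 17.5, 14.9, 12.6 and 12.4 CPM in PBS. Every CDDP library exceeded every library of both other groups. Its log2 fold changes were 1.16 ± 0.20, adjusted p = 4.13e-05 in CDDP against PBS, -1.10 ± 0.20, adjusted p = 0.000127 in CDDP+ACBP against CDDP, and -0.99 ± 0.28, adjusted p = 0.0129 for the interaction. All of these calls held in 7 alternatives and with each library left out.

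The other genes of the conjugation system differed less or went the other way. Atg5 averaged 30.98 ± 12.1 CPM in CDDP+ACBP, 29.8 ± 2.13 CPM in CDDP and 26.6 ± 5.67 CPM in PBS, and Atg7, the E1-like enzyme, 43.1 ± 6.30 CPM in CDDP+ACBP, 37.4 ± 6.31 CPM in CDDP and 42.4 ± 3.40 CPM in PBS (SD, n = 5 each). Neither passed in CDDP against PBS, with log2 fold changes of 0.16 ± 0.20 and -0.18 ± 0.12. Limma voom did call Atg7 lower (-0.25, adjusted p = 0.0448). Atg3, the E2-like enzyme that passes LC3 to lipid, was lower at -0.49 ± 0.17, adjusted p = 0.0209, with 65.8, 43.6, 60.9, 61.9 and 37.3 CPM in CDDP, against 64.6, 74.7, 91.4, 79.3 and 67.6 CPM in PBS. Its groups overlapped, and the call was lost without CDDP replicate 2 or 5 or PBS replicate 3 (log2 fold changes of -0.38 to -0.42, adjusted p = 0.0646 to 0.0695). Atg16l1, the scaffold of the LC3 ligase, was called higher (0.82 ± 0.25, adjusted p = 0.0112), with 68.1, 52.9, 52.5, 45.3 and 180.0 CPM in CDDP, against 50.4, 42.4, 39.3, 48.8 and 45.4 CPM in PBS. Replicate 5 again stood above the others, and without it the fold change did not pass (0.27, adjusted p = 0.186).

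All 4 genes of the ATG8 family, whose proteins are attached to the autophagosome membrane, were higher in CDDP than in PBS. Map1lc3a (ENSMUSG00000027602, chr2:155276297-155278073, plus strand), an LC3 gene, had 46.04, 45.4, 23.3, 20.3 and 45.3 CPM in CDDP+ACBP, 46.5, 92.4, 64.2, 58.5 and 117 CPM in CDDP and 26.7, 50.2, 38.1, 28.2 and 31.5 CPM in PBS. CDDP was above CDDP+ACBP in every library and overlapped with PBS in 1 library. The log2 fold change was 1.11 ± 0.26, adjusted p = 0.00136 in CDDP against PBS and -1.07 ± 0.26, adjusted p = 0.00265 in CDDP+ACBP against CDDP, and the interaction was -1.14 ± 0.37, adjusted p = 0.0293, lost without CDDP+ACBP replicate 3 or 4 or CDDP replicate 2 or 5 or ACBP replicate 2 or PBS replicate 1, 4 or 5 (log2 fold changes of -0.91 to -1.11, adjusted p = 0.0512 to 0.077). Limma voom lost the call in CDDP+ACBP against CDDP (adjusted p = 0.0504), and the interaction call was kept in 4 of 7 alternatives. Map1lc3b, the LC3 gene whose protein is the usual autophagosome marker, had 95.8, 108, 88.8, 102 and 107 CPM in CDDP+ACBP, 106, 193, 113, 136 and 519 CPM in CDDP and 97.4, 126, 118, 92.6 and 99.7 CPM in PBS. The groups overlapped, and the distance between CDDP and PBS rested mostly on replicate 5: 1.0 ± 0.27, adjusted p = 0.0036 with it and 0.36, adjusted p = 0.0459 without it. The call was lost in limma voom (0.28, adjusted p = 0.122) and in the fit of only both groups (0.96, adjusted p = 0.0807). The interaction of -1.07 ± 0.37, adjusted p = 0.0426 was at -0.43, adjusted p = 0.124 without replicate 5, and its call was kept in 2 of 7 alternatives and with 9 of 20 libraries left out in turn.

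Gabarap, of the branch of the family that acts late in autophagosome closure, had 209.8, 182, 82.4, 109.7 and 211 CPM in CDDP+ACBP, 238, 338, 258, 238 and 219.6 CPM in CDDP and 104, 151, 171, 145 and 121 CPM in PBS. The CDDP libraries lay above all others of these groups and replicate 2 was the highest of them. Gabarap had a log2 fold change of 0.90 ± 0.23, adjusted p = 0.00225 in CDDP against PBS, -0.70 ± 0.22, adjusted p = 0.0169 in CDDP+ACBP against CDDP and -0.96 ± 0.32, adjusted p = 0.0322 for the interaction. The second of these calls was lost without CDDP+ACBP replicate 3 or 4 or CDDP replicate 2 (log2 fold changes of -0.54 to -0.59, adjusted p = 0.0565 to 0.0585), and the interaction without CDDP+ACBP replicate 3 or 4 or CDDP replicate 2 or ACBP replicate 2 or 5 or PBS replicate 1 or 5 (log2 fold changes of -0.80 to -0.92, adjusted p = 0.0569 to 0.0687). Limma voom and the fit of only both groups also lost the second call (adjusted p up to 0.1253), and the interaction call was kept in 4 of 7 alternatives. Gabarapl1 was higher in CDDP at 0.65 ± 0.25, adjusted p = 0.0373, a call kept in 3 of 7 alternatives and lost without CDDP replicate 2, 4 or 5 or PBS replicate 1, 4 or 5 (log2 fold changes of 0.47 to 0.64, adjusted p = 0.0637 to 0.136). It averaged 203 ± 70.3 CPM in CDDP+ACBP, 283 ± 94.4 CPM in CDDP and 181 ± 31.2 CPM in PBS (SD, n = 5 each).

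Of the 5 cargo receptors, 1 was higher in CDDP. Sqstm1 (ENSMUSG00000015837, chr11:50199366-50210827, minus strand), which encodes the receptor p62 that binds ubiquitin and LC3 and is itself also a target of the oxidative stress factor NRF2, had 422, 358, 262, 239 and 292 CPM in CDDP+ACBP, 362, 568, 366, 998 and 1266 CPM in CDDP and 243, 268, 246, 243 and 196 CPM in PBS. All CDDP libraries lay above all PBS libraries, and CDDP+ACBP replicate 1 reached into the CDDP range. The log2 fold change of 1.57 ± 0.26, adjusted p = 3.05e-05 was the smallest adjusted p of any member in CDDP against PBS. It was -1.18 ± 0.26, adjusted p = 0.000932 in CDDP+ACBP against CDDP and -1.52 ± 0.36, adjusted p = 0.00443 for the interaction. In limma voom the values were 0.96, adjusted p = 0.000434 in CDDP against PBS and -0.44, adjusted p = 0.165 in CDDP+ACBP against CDDP, where the call was lost. The fit of only both groups lost that call too. Of the exon bases of Sqstm1, 17.3% overlap Mrnip on the opposite strand.

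Nbr1, a relative of p62, had 176 ± 5.16 CPM in CDDP+ACBP, 174 ± 18.3 CPM in CDDP and 165 ± 12.8 CPM in PBS (SD, n = 5 each), with a log2 fold change of 0.07 ± 0.10 in CDDP against PBS, which did not pass. Optn, a receptor for bacteria and damaged mitochondria, and Tax1bp1 did not pass either, at -0.36 ± 0.24 and 0.36 ± 0.15; Optn was called lower in limma voom (-0.92, adjusted p = 0.000144) and without CDDP replicate 2 (-0.60, adjusted p = 0.0431) and without CDDP replicate 5 (-0.59, adjusted p = 0.0493). Bnip3, a mitophagy receptor that hypoxia induces, did not pass in CDDP against PBS (0.54 ± 0.27) but was lower in CDDP+ACBP than in CDDP at -0.90 ± 0.28, adjusted p = 0.0122. It had 164, 149.9, 112, 190.1 and 263 CPM in CDDP+ACBP, against 195, 335, 217, 187 and 711 CPM in CDDP. The groups overlapped, replicate 5 of CDDP was the highest, and the call was lost without it (-0.41, adjusted p = 0.147). The Bnip3 call was kept in 4 of 7 alternatives.

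The 2 TFEB family factors among the members moved in opposite directions. Tfeb (ENSMUSG00000023990, chr17:47737030-47792419, plus strand) had 19.01, 21.2, 27.6, 25.9 and 18.99 CPM in CDDP+ACBP, 13.1, 11.8, 16.2, 13.6 and 16.7 CPM in CDDP and 27.2, 28.6, 23.05, 24.9 and 30.6 CPM in PBS. Every CDDP library was below every library of CDDP+ACBP and of PBS. On the log2 scale Tfeb differed by -0.91 ± 0.16, adjusted p = 8.78e-05 in CDDP against PBS, 0.66 ± 0.16, adjusted p = 0.00291 in CDDP+ACBP against CDDP and 0.90 ± 0.23, adjusted p = 0.00773 for the interaction. Tfe3 had 30.1, 29.7, 27.5, 20.3 and 18.9 CPM in CDDP+ACBP, 33.7, 28.4, 26.8, 49.9 and 61.4 CPM in CDDP and 20.3, 18.8, 19.9, 22.5 and 24.2 CPM in PBS. All CDDP libraries lay above all PBS libraries and overlapped with CDDP+ACBP, with 0.92 ± 0.19, adjusted p = 0.000418 in CDDP against PBS and -0.66 ± 0.19, adjusted p = 0.00877 in CDDP+ACBP against CDDP, the second lost without CDDP replicate 5 (-0.46, adjusted p = 0.052). The second call was also lost in limma voom and in the fit of only both groups (adjusted p up to 0.2349). The interaction of Tfe3 did not pass (-0.68 ± 0.27, adjusted p = 0.0755) except without CDDP replicate 2 (-0.78, adjusted p = 0.0453) and without CDDP replicate 3 (-0.79, adjusted p = 0.0323). These values are of mRNA and say nothing of where the factors were in the cell.

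**Figure D3:**
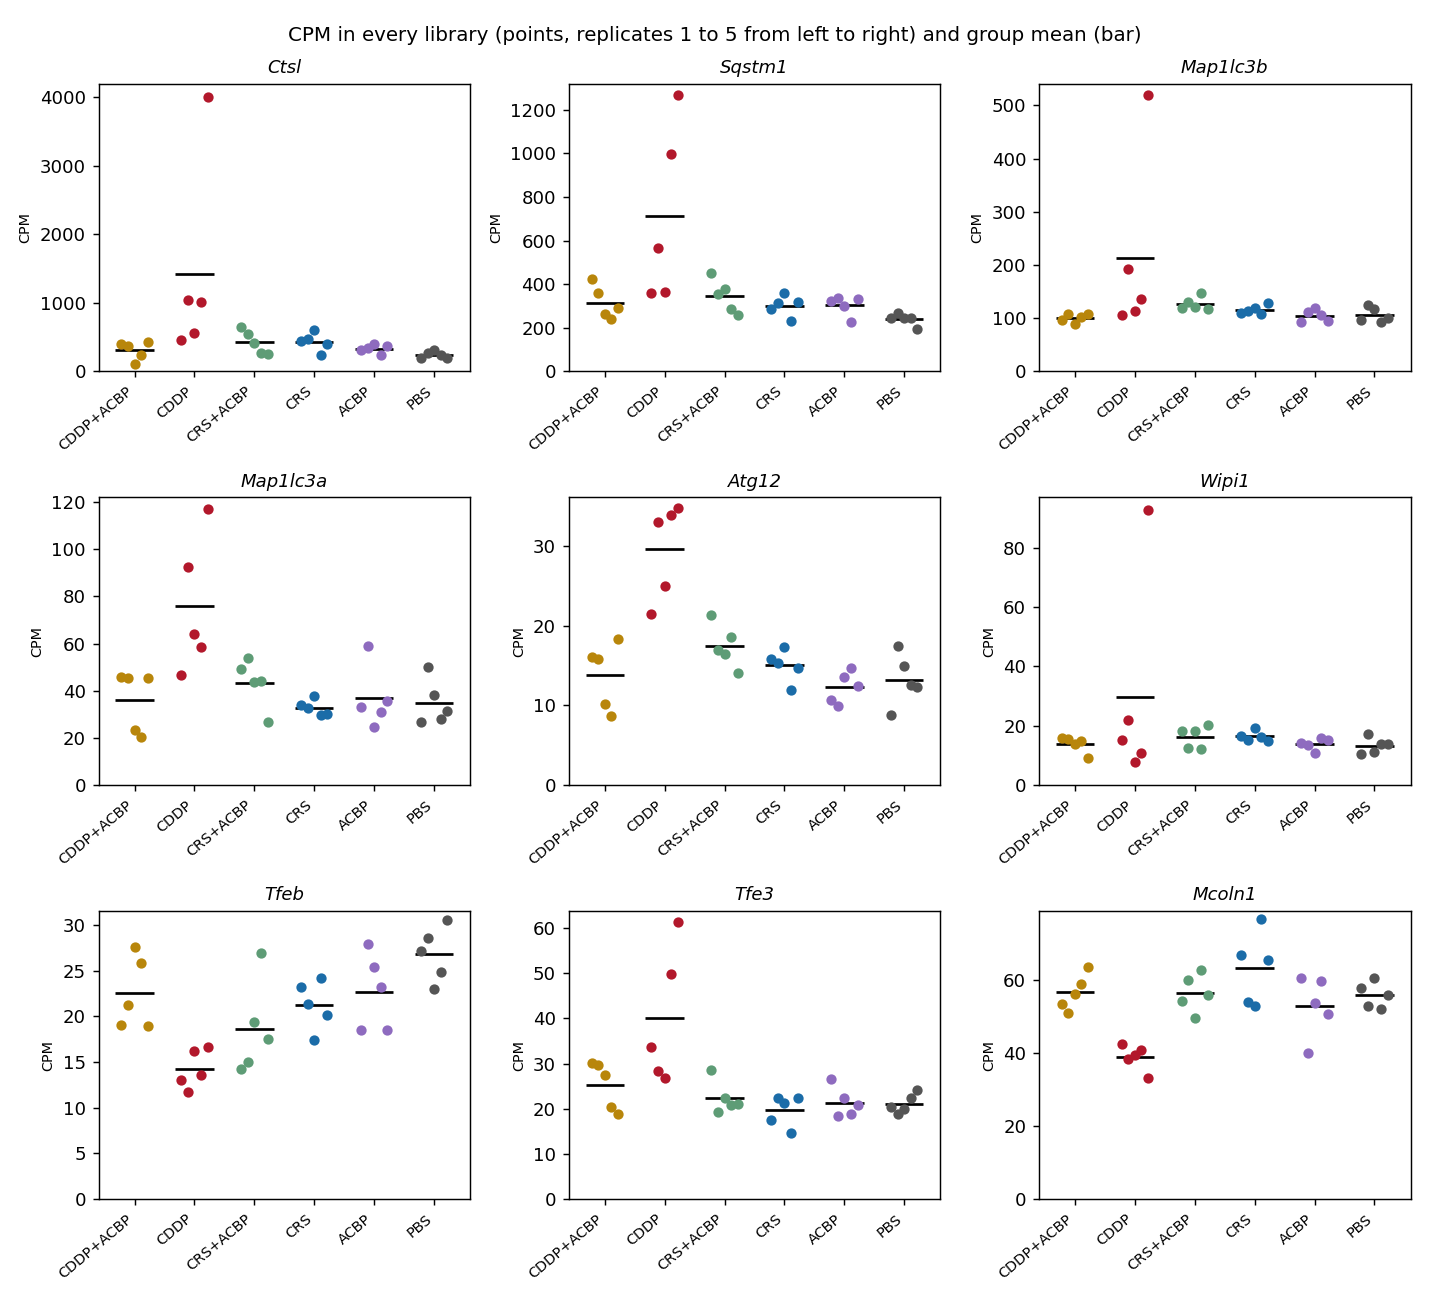
CPM of 9 members in all 30 libraries, by group; points are libraries and bars group means. In CDDP, Ctsl reaches 4006 CPM and Wipi1 92.6 CPM in replicate 5, Atg12 is high in all 5 libraries, and the 5 CDDP points of Tfeb and Mcoln1 lie below all points of CDDP+ACBP and PBS.

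TFEB and TFE3 bind E-box motifs, which include CACGTG. RefSeq promoter windows, on build GRCm38.p6, that run to 50 bases past the transcription start were found for 35 of the 41 members (42 windows). The letters CACGTG, read on both strands, occurred in 35.7% of the members' windows, against 7.15% of all 32851 windows, and the longer TCACGTGA, which contains it, in 16.7%, against 0.974%. The following stretches of 60 bases lie outside annotated exons and are written on the strand of the gene, with the motif in capitals. They are shown because they come from genes that were higher (Lamp1, chr8:13159097-13159156, plus strand; Atp6v1a, chr16:44139358-44139417, minus strand), lower (Atg3, chr16:45158719-45158778, plus strand; Mcoln1, chr8:3500397-3500456, plus strand) and not called (Gaa, chr11:119267796-119267855, plus strand; Glb1, chr9:114401003-114401062, plus strand) in CDDP against PBS.
Lamp1: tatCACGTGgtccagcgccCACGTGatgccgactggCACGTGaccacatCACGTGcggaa
Atp6v1a: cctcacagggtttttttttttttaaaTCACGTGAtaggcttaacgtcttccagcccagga
Atg3: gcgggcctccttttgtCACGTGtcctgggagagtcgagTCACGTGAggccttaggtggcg
Mcoln1: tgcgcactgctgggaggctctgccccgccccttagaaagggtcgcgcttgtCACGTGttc
Gaa: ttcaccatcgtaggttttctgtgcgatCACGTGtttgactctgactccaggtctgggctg
Glb1: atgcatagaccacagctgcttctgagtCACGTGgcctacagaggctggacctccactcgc

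Lamp1 held 4 copies of CACGTG, all within the printed stretch. Of the 15 members with CACGTG, 6 were higher in CDDP than in PBS, 3 lower and 6 not called, and of the 19 tested members without it, 12 were higher, 2 lower and 5 not called. The 7 members with TCACGTGA comprised 4 that were higher (Atp6v0d1, Atp6v1a, Ctsd and Gla) and 3 that were lower (Atg3, Mcoln1 and Ctsa). The motif thus occurred on genes of both directions and on genes without a call. A match describes letters in a window and no binding, and the motifs were chosen after the values were seen.

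Of the 6 tested genes of the lysosomal membrane and its acidification, 4 were higher in CDDP and 1 lower. Lamp1, an abundant membrane glycoprotein of the lysosome, had 378, 324, 130.2, 198 and 416 CPM in CDDP+ACBP, 374, 477, 487, 486 and 539.5 CPM in CDDP and 176, 288, 276, 235 and 173 CPM in PBS. CDDP lay above PBS in every library and overlapped with CDDP+ACBP. It was 1.04 ± 0.25, adjusted p = 0.00159 in CDDP against PBS, and -0.71 ± 0.25, adjusted p = 0.0282 in CDDP+ACBP against CDDP, a call lost without CDDP+ACBP replicate 3 or 4 or CDDP replicate 5 (log2 fold changes of -0.52 to -0.66, adjusted p = 0.0582 to 0.0868). The second call was kept in 4 of 7 alternatives, and limma voom and the fit of only both groups lost it (adjusted p up to 0.1509 among the alternatives). Lamp2, which also serves chaperone-mediated autophagy, was higher at 0.51 ± 0.19, adjusted p = 0.0334, with 389, 341, 437, 412 and 319 CPM in CDDP, against 264, 261, 305, 261 and 240.2 CPM in PBS. These 2 groups did not overlap, yet the call was lost without CDDP replicate 3 or 4 or PBS replicate 1, 2, 4 or 5 (log2 fold changes of 0.46 to 0.51, adjusted p = 0.0564 to 0.0736).

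Atp6v0d1, a subunit of the proton pump that acidifies the lysosome, had 63.3, 56.4, 43.8, 49.9 and 76.7 CPM in CDDP+ACBP, 76.3, 75.6, 71.1, 80.9 and 108 CPM in CDDP and 52.9, 49.4, 56.8, 55.1 and 44.3 CPM in PBS. CDDP exceeded PBS in every library, with 0.67 ± 0.14, adjusted p = 0.000483, and the interaction was -0.70 ± 0.20, adjusted p = 0.0154. Atp6v1a, the catalytic subunit of the pump, was higher at 0.72 ± 0.22, adjusted p = 0.00901, with 21.2, 30.5, 27.4, 36.4 and 10.2 CPM in CDDP, against 14.4, 16.1, 15.7, 15.6 and 14.8 CPM in PBS. Here replicate 5 was the lowest, below all PBS libraries, and the other 4 lay above them. Atp6v1h, another subunit, did not pass (0.16 ± 0.30).

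Mcoln1 (ENSMUSG00000004567, chr8:3500457-3515232, plus strand), which encodes the calcium channel TRPML1 of the lysosome and is a known TFEB target, went the other way. It had 53.5, 50.9, 56.04, 58.9 and 63.5 CPM in CDDP+ACBP, 42.4, 38.3, 39.3, 40.8 and 33.2 CPM in CDDP and 57.6, 52.9, 60.5, 52 and 55.8 CPM in PBS. All CDDP libraries were below all libraries of both other groups. Mcoln1 had a log2 fold change of -0.52 ± 0.12, adjusted p = 0.00123 in CDDP against PBS, 0.54 ± 0.12, adjusted p = 0.00124 in CDDP+ACBP against CDDP and 0.62 ± 0.17, adjusted p = 0.0125 for the interaction, and each of these calls held in all 7 alternatives and with any 1 library left out.

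Gpnmb, a glycoprotein of lysosomes in activated macrophages and a known MiT target, was too low for the filter of the main fit. Its counts were 1, 5, 6, 1 and 0 in CDDP+ACBP, 12, 63, 26, 135 and 7 in CDDP, and 3, 0, 0, 6 and 4 in PBS. In CPM, CDDP held 0.683, 3.51, 1.43, 6.81 and 0.565, above every library of the other 2 groups. Without the filter, edgeR gave a log2 fold change of 3.99 ± 0.90 (adjusted p = 0.00117) in CDDP against PBS and -4.10 ± 0.90 (adjusted p = 0.00131) in CDDP+ACBP against CDDP, over 29876 genes, and these fitted values depend on the prior count. Trem2, another marker of activated macrophages, was also higher in CDDP (1.64 ± 0.58, adjusted p = 0.0259), while the summed macrophage markers were lower, and the part of macrophages in the Gpnmb counts was not tested.

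**Figure D4:**
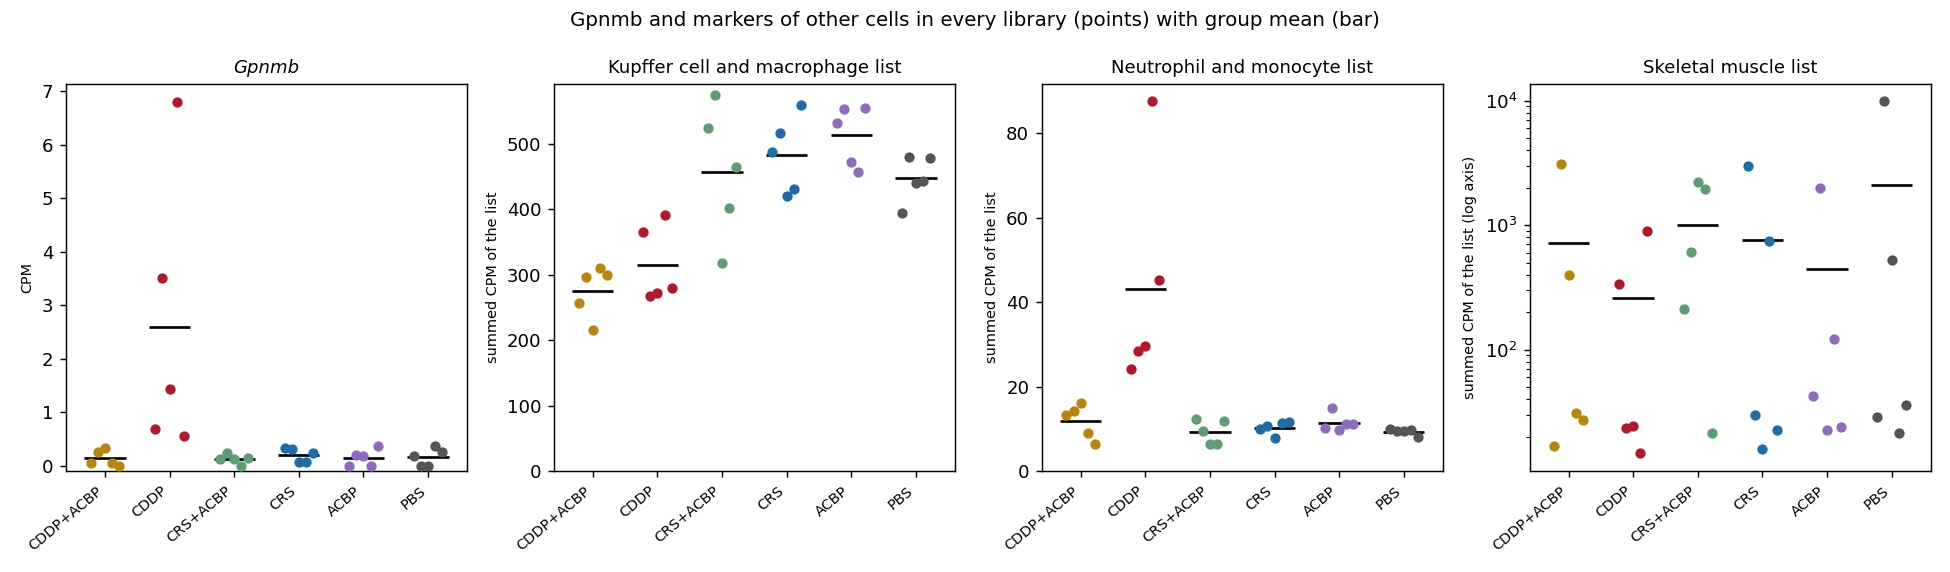
Gpnmb in CPM and the summed CPM of the Kupffer cell and macrophage, neutrophil and monocyte, and skeletal muscle marker lists in all 30 libraries by group (points), with group means (bars); the muscle axis is logarithmic. Gpnmb is above 0.5 CPM in CDDP alone, macrophage sums are lower in CDDP+ACBP and CDDP than in ACBP and PBS, and muscle transcripts are high in single libraries, up to 9889 CPM in PBS replicate 2.

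The cathepsins, the proteases of the lysosome, split: 3 of 5 were higher in CDDP, 1 lower and 1 did not pass. Ctsl (ENSMUSG00000021477, chr13:64359337-64370890, minus strand) had 396, 368, 108, 244 and 426 CPM in CDDP+ACBP, 465, 1036, 562, 1013 and 4006 CPM in CDDP and 199, 273, 306, 236 and 196 CPM in PBS. All CDDP libraries lay above all others of these groups, with replicate 5 far above the rest. The log2 fold change in CDDP against PBS was 2.55 ± 0.44, adjusted p = 5.21e-05, 1.67, adjusted p = 0.000272 without that library and 1.47, adjusted p = 0.000163 in limma voom. It was -2.20 ± 0.43, adjusted p = 0.000368 in CDDP+ACBP against CDDP, and -1.32, adjusted p = 0.00332 without that library and -0.97, adjusted p = 0.0246 in limma voom. The interaction was -2.66 ± 0.60, adjusted p = 0.00309, and -1.78, adjusted p = 0.00735 without that library and -1.47, adjusted p = 0.0112 in limma voom. Of its exon bases, 26.9% overlap an antisense gene and 6.09% a pseudogene on the same strand, so its count is uncertain to that extent.

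Ctsd, the main aspartic protease, had 275, 235, 157, 185 and 320.3 CPM in CDDP+ACBP, 304, 367, 302, 255 and 592 CPM in CDDP and 142, 212, 187, 169 and 149.8 CPM in PBS. CDDP and PBS did not overlap, while CDDP+ACBP reached into both. The log2 fold change was 1.08 ± 0.21, adjusted p = 0.000207 in CDDP against PBS and -0.63 ± 0.21, adjusted p = 0.0201 in CDDP+ACBP against CDDP, the second lost without CDDP+ACBP replicate 3 or 4 or CDDP replicate 5 (log2 fold changes of -0.39 to -0.56, adjusted p = 0.0611 to 0.122). The second call was also lost in limma voom and in the fit of only both groups (adjusted p up to 0.1668). Of the exon bases of Ctsd, 34.4% are shared with Gm49369 on the same strand. Ctsz, the carboxypeptidase cathepsin Z, had 267, 261, 172, 209 and 331 CPM in CDDP+ACBP, 339, 479, 335, 343 and 475 CPM in CDDP and 222, 228, 260.3, 237 and 227 CPM in PBS. Every CDDP library was above every library of both other groups, with 0.75 ± 0.16, adjusted p = 0.000678 in CDDP against PBS and -1.04 ± 0.23, adjusted p = 0.00282 for the interaction.

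Ctsa, the protective protein that holds the sialidase and β-galactosidase in a complex, was lower in CDDP. It had 294, 281, 309.5, 394 and 349 CPM in CDDP+ACBP, 207, 274, 168, 147 and 305 CPM in CDDP and 386, 256, 371, 303 and 324 CPM in PBS. The groups overlapped, with -0.58 ± 0.16, adjusted p = 0.00596 in CDDP against PBS and 0.57 ± 0.16, adjusted p = 0.00868 in CDDP+ACBP against CDDP. Both calls were lost in the edgeR fits of only the groups compared (adjusted p = 0.05345 and 0.1104). Ctsb, the cysteine protease with the highest CPM among the members in PBS, averaged 468 ± 151 CPM in CDDP+ACBP, 376 ± 151 CPM in CDDP and 484 ± 77.7 CPM in PBS (SD, n = 5 each) and did not pass in CDDP against PBS (-0.36 ± 0.24). Its lowest CDDP library was replicate 5 at 164 CPM, the library with the highest Ctsl.

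Among the 7 enzymes and cofactors of glycan and lipid breakdown, 3 were higher in CDDP and 1 lower. Psap, the precursor of the saposins that present sphingolipids to their hydrolases, had 357, 345, 224, 225 and 366 CPM in CDDP+ACBP, 348, 524, 352, 429 and 785 CPM in CDDP and 221, 306, 297, 259 and 245 CPM in PBS. CDDP was above PBS in every library, with 0.88 ± 0.20, adjusted p = 0.000959, and -0.69 ± 0.20, adjusted p = 0.00899 in CDDP+ACBP against CDDP, lost without CDDP replicate 5 (-0.45, adjusted p = 0.0575). The second call was also lost in limma voom and in the fit of only both groups (adjusted p up to 0.2865). Lipa, the acid lipase that frees cholesterol and fatty acids, was called higher at 0.89 ± 0.30, adjusted p = 0.0206, with 109, 201, 127, 124 and 28.8 CPM in CDDP, against 67.9, 58.2, 68.2, 71.04 and 53.8 CPM in PBS. In 4 CDDP libraries it lay above all PBS libraries, in replicate 5 below them, and the call was lost without CDDP replicate 2 (0.61, adjusted p = 0.112).

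Gla, the α-galactosidase, was higher from a low level, with 6.26, 6.57, 5.87, 8.02 and 2.99 CPM in CDDP, against 3.23, 1.98, 2.27, 3.39 and 2.81 CPM in PBS, and 1.12 ± 0.31, adjusted p = 0.00475. Neu1, the sialidase, was lower, with 77.2, 63.2, 77.6, 63.1 and 65.9 CPM in CDDP+ACBP, 45.8, 59.3, 46.5, 47.7 and 49.1 CPM in CDDP and 70.6, 57.4, 59.6, 62.97 and 67.7 CPM in PBS. CDDP lay below CDDP+ACBP in every library and overlapped with PBS in 1 library, and the tests gave -0.36 ± 0.12, adjusted p = 0.0178 in CDDP against PBS, with the call lost without PBS replicate 1 (-0.32, adjusted p = 0.051), 0.48 ± 0.12, adjusted p = 0.00283 in CDDP+ACBP against CDDP and 0.55 ± 0.17, adjusted p = 0.0211 for the interaction. Hexa, Gaa and Glb1, a hexosaminidase subunit, the acid glucosidase for glycogen and the acid β-galactosidase, did not pass in CDDP against PBS, at 0.38 ± 0.20, 0.33 ± 0.18 and -0.13 ± 0.23. Gaa reached 150.1 CPM in CDDP replicate 5, against 62.2 to 75.3 CPM in the other 4.

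The 5 members lower in CDDP than in PBS were thus Atg3, Tfeb, Mcoln1, Ctsa and Neu1. The interaction calls were lower for Atg13, Atg12, Map1lc3a, Map1lc3b, Gabarap, Sqstm1, Lamp1, Atp6v0d1, Ctsd, Ctsl, Ctsz and Psap and higher for Tfeb, Mcoln1 and Neu1. Of these 15, 6 (Atg12, Sqstm1, Tfeb, Mcoln1, Ctsl and Ctsz) kept their call under all 7 alternatives and with each of 20 libraries left out. Some settings added interaction calls. Without CDDP replicate 5, Atp6v1a (-0.93, adjusted p = 0.00801), Lipa (-1.23, adjusted p = 0.011) and Gla (-1.26, adjusted p = 0.0333) were also lower in edgeR. Limma voom added Atp6v1a and Lipa as lower and Ctsa and Optn as higher. Without CDDP+ACBP replicate 4, the library with the low Cdkn1a, the interaction called 9 of 41 members. In that fit it called 15.1% of all genes, against 19.7% in the main fit. Without the 7 libraries rich in muscle or brain transcripts it called 6 members, and calls over all genes, given in the last paragraph, fell too. In CDDP+ACBP against CDDP, 17 members were called in either case, Gpnmb among them. Without CDDP+ACBP replicate 4, 4581 of 16576 genes were called in that contrast, against 5503 of 16304 in the main fit. Without CDDP replicate 5, 18 of 41 members and 4842 of 16609 genes were called. Lipa, Gla and Gpnmb were newly lower there, and Ulk1 and Atg7 newly higher. In that contrast 5 (Atg13, Atg12, Tfeb, Mcoln1 and Ctsl) kept their call throughout. In CDDP against PBS, 15 did: Atg13, Atg12, Map1lc3a, Gabarap, Sqstm1, Tfeb, Tfe3, Lamp1, Mcoln1, Atp6v0d1, Ctsd, Ctsl, Ctsz, Gla and Psap.

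Cisplatin was also set against the other anorexia model. In CDDP against CRS, 12 members were higher and 6 lower in CDDP, against 19.5% and 15.1% of all genes. The smallest adjusted p belonged to Mcoln1, with 42.4, 38.3, 39.3, 40.8 and 33.2 CPM in CDDP, against 66.9, 53.9, 52.9, 76.5 and 65.4 CPM in CRS (-0.70 ± 0.12, adjusted p = 8.68e-05). Tfe3 had 33.7, 28.4, 26.8, 49.9 and 61.4 CPM in CDDP, against 17.5, 22.3, 21.3, 14.7 and 22.3 CPM in CRS, with 1.03 ± 0.19, adjusted p = 0.000194. Neither gene overlapped between these groups, which held for 9 members, 6 with every CDDP library above (10.1% of all genes) and 3 with every one below (9.14%). Sqstm1, Map1lc3a, Atg12 and Atg13 were higher in CDDP than in CRS at 1.24 ± 0.26, 1.20 ± 0.26, 0.98 ± 0.20 and 0.77 ± 0.20, and Tfeb and Neu1 lower at -0.58 ± 0.16 and -0.41 ± 0.12. Atg7 (-0.36 ± 0.12, adjusted p = 0.02) and Glb1 (-0.58 ± 0.23, adjusted p = 0.0474) were lower in CDDP than in CRS, while neither passed against PBS in edgeR. Limma voom called Atg7 lower against PBS too (-0.25, adjusted p = 0.0448). Against CRS, the Atg7 call was kept in 4 of 7 alternatives and the Glb1 call with 3 of 10 libraries left out in turn. DESeq2 called 13 members higher and 6 lower, where 3200 of 16304 genes were higher. Without CDDP replicate 5 the calls were 7 higher, Gpnmb among them, and 6 lower. In limma voom 7 were higher and 7 lower, and in the fit of only both groups 6 higher and 4 lower. Without the libraries rich in muscle or brain transcripts 11 were higher, Gpnmb again among them, and 3 lower. Of all genes, 2145 of 14797 were called higher in the fit of only both groups and 2828 of 16304 in limma voom. Without CDDP replicate 5, 2761 of 16609 were. The excess of higher calls was thus nearly gone without that library and absent or nearly so in limma voom and in the fit of only both groups. Ctsl, at 1.71 ± 0.43, adjusted p = 0.00277 here, lost its call without that library (0.83, adjusted p = 0.052).

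CRS itself was not accompanied by a call among the members in edgeR or DESeq2, while limma voom called some. In CRS against PBS, edgeR called 0 of 40 members, 4 had an unadjusted p under 0.05 and 0.141% of all genes were called; DESeq2 also called 0. The members ranged from -0.33 ± 0.16 for Tfeb to 0.84 ± 0.42 for Ctsl, with a median of 0.18 over the members and 0.00 over all genes. Ctsl had 445, 479, 602, 243 and 393 CPM in CRS, against 199, 273, 306, 236 and 196 CPM in PBS, with an adjusted p of 0.564. The CRS libraries were mostly higher, but 1 lay within the PBS range, and in 0 members did every CRS library lie above (2.26% of all genes) or below (2.05%) every PBS library. Limma voom with quality weights, which gives noisy libraries less weight, called 5 members higher, namely Ctsl (0.86, adjusted p = 0.0253), Atp6v1a (0.60, adjusted p = 0.0113), Ctsd (0.47, adjusted p = 0.0232), Atg5 (0.50, adjusted p = 0.0316) and Glb1 (0.50, adjusted p = 0.0491). It called 930 genes in all, 5.7% of the 16304 tested, 500 of them higher.

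No member was called by edgeR, DESeq2 or limma voom for the ACBP pump in mice without cisplatin. In ACBP against PBS, edgeR called 0 members and 0 genes in all, a background of 0%, and 2 members had an unadjusted p under 0.05; over all genes DESeq2 called 9 and limma voom 2. The members ran from -0.24 ± 0.16 for Tfeb to 0.49 ± 0.22 for Atp6v1a. Atp6v1a had 16.5, 19.3, 19.1, 28.98 and 23.6 CPM in ACBP, against 14.4, 16.1, 15.7, 15.6 and 14.8 CPM in PBS. Every ACBP library lay above every PBS library, the 1 member for which this held, where it held for 0.767% of all genes (and below, in 0 members, for 1.02%), and its adjusted p was 0.999. In CRS+ACBP against CRS and in the interaction of CRS and ACBP, 0 members were called by edgeR, DESeq2 or limma voom and 0 had an unadjusted p under 0.05 in edgeR. Over all genes, edgeR called 0 in both, DESeq2 1 in CRS+ACBP against CRS and 4 for the interaction, and limma voom 3 in CRS+ACBP against CRS and 1 for the interaction. In CRS+ACBP against ACBP, 0 members were called by the same 3 tools and 2 had an unadjusted p under 0.05. These tests do not show that the groups were alike; the standard errors of single members were 0.10 to 0.42 on the log2 scale in ACBP against PBS.

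The order of levels in PBS livers, per kb of exon, ran from Ctsz at 163 CPM per kb, Bnip3 at 99.7 and Psap at 96.7 to Atg12 at 1.72, Gla at 0.838 and Gpnmb at 0.0245 CPM per kb. Members called in CDDP against PBS lay at both ends of this order, from Ctsz to Gla.

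A wider list held 127 other tested genes of the pathway. These genes were counted in the main fit only, not under the alternatives or with libraries left out. In CDDP against PBS, 55 were higher and 17 lower, where 23.1% and 18.3% of all genes were. In CDDP+ACBP against CDDP, 16 were higher and 44 lower, where 14.9% and 18.8% of all genes were. In the interaction, 8 were higher and 30 lower, where 8.38% and 11.3% were, and in CDDP against CRS, 43 were higher and 14 lower, where 19.5% and 15.1% were. The shares of the list lower in CDDP against PBS, higher in CDDP+ACBP against CDDP and in the interaction, and lower in CDDP against CRS were below those of all genes. In CRS against PBS 1 was higher, Arsa, the arylsulfatase A gene (0.79 ± 0.16, adjusted p = 0.0281), and the other 5 comparisons called 0. The median log2 fold change in CDDP against PBS was 0.33. Of 13 further proton pump subunits, 9 were higher and 0 lower in CDDP against PBS, and 9 lower and 0 higher in CDDP+ACBP against CDDP. Atp6v0e, a membrane subunit, had 30.4, 28.1, 13.3, 18.8 and 27.5 CPM in CDDP+ACBP, 47.5, 84.7, 49.6, 59.1 and 70.03 CPM in CDDP and 14.5, 18.1, 21.5, 20.6 and 18.9 CPM in PBS, with 1.73 ± 0.21, adjusted p = 8.36e-07 in CDDP against PBS. Its CDDP libraries lay above all libraries of both other groups.

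Of 31 further genes of autophagosome formation, 16 were higher in CDDP than in PBS and 2 lower, where 23.1% and 18.3% of all genes were. Vmp1, an endoplasmic reticulum protein needed for the membrane to form, had 108, 96.04, 134, 105 and 85.7 CPM in CDDP+ACBP, 178, 278, 356, 409 and 239.9 CPM in CDDP and 111, 91.7, 83.8, 98.6 and 107 CPM in PBS (1.57 ± 0.20, adjusted p = 1.67e-06 in CDDP against PBS). Here too CDDP lay above both other groups in every library. Tecpr1, which acts in fusion with the lysosome, was lower at -1.28 ± 0.18, adjusted p = 3.09e-06. Of 9 further cargo receptors 3 were higher, among 33 further hydrolases and cofactors 13 were higher and 8 lower, and among 16 further membrane and transport genes 7 were higher and 2 lower. The 4 p53-linked autophagy genes had 1 higher and 0 lower. The lower share of the hydrolases and the higher share of the p53-linked genes were near those of all genes.

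Of the 21 regulators around mTORC1, AMPK and the MiT factors, 6 were higher and 5 lower in CDDP against PBS, near the 23.1% and 18.3% of all genes. Flcn, Fnip1 and Fnip2 encode folliculin and its partners, which act at the lysosome on the phosphorylation of TFEB and TFE3 by mTORC1. Flcn had 104, 105, 219, 146 and 96.97 CPM in CDDP+ACBP, 44.5, 37.3, 53.6, 56.3 and 28.6 CPM in CDDP and 147, 111, 140.3, 124 and 174 CPM in PBS. Every CDDP library was below every library of both other groups. It was lower in CDDP at -1.66 ± 0.24, adjusted p = 6.73e-06, with an interaction of 1.97 ± 0.34, adjusted p = 0.000334. Fnip1 and Fnip2 were lower too, at -0.90 ± 0.16 and -1.26 ± 0.22. Sesn2, a stress-induced inhibitor of mTORC1, was higher at 2.96 ± 0.46, adjusted p = 1.53e-05.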

How the data were processed

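Messenger RNA of mouse liver, in 30 libraries, 5 for each of 6 treatments, was sequenced after a strand-specific preparation from 1.5 µg of total RNA, per the labels' protocols. The deposited values are raw read counts per Ensembl gene; reads were aligned with HISAT2 2.2.1 to mm10 and counted with HTSeq 2.0.3, per the submitters' processing notes. Whether counting used the strand is not given in the sources used here. Summary lines, 5 in all, were left out; of all reads, 34.7 to 42.5% were counted on genes, 40.9 to 45.6% on no gene, 6.22 to 15.8% aligned to several places and 1.44 to 2.09% were ambiguous between genes. From the counts, edgeR 4.0.16 (R 4.3.3; TMM, filterByExpr, quasi-likelihood F test, 1 fit of all 30 libraries with 24 residual degrees of freedom) gave log2 fold changes, and p-values were adjusted by Benjamini-Hochberg over 16304 genes for each of 10 comparisons; the procedure was tested on simulated data. A gene is called at an adjusted p under 0.05. CPM values use TMM library sizes, ± after a fold change is a standard error and ± after a mean is an SD. Alternatives were RLE normalization, no filter, at least 1 CPM in 5 libraries, DESeq2 1.42.0, limma 3.58.1 voom with quality weights, only the groups compared, and each library left out; leaving out libraries rich in muscle or brain transcripts was added after seeing the data. No library pair of a group was alike within counting noise (chi-square per degree of freedom of at least 21.1). Gene positions and exon lengths are from GENCODE vM21, matched for 99.21% of identifiers. The members, gene lists and tests were chosen with earlier results of these data known. All members may be named; values in every library are given for those with the smallest p in each role and comparison, and for others that the results turn on, chosen after their values were seen. Of the wider pathway list, up to 4 genes in each direction with the smallest p in a comparison were named; 1 of its 128 genes had no match in the table.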

Additional observations from a re-analysis of the deposited data

Results flagged for a closer look

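Values that stood apart from the other 4 libraries of their group were found in 19 of 240 groups of 5 values (7.92%), where chance would set apart about 5%. Of the 19, 9 fell in CDDP replicate 5, which was the highest of its group for Ulk1 at 212 CPM (60.4 to 102 CPM in the other 4), Atg13 at 85.4 CPM (57.5 to 64.8 CPM in the other 4), Wipi1 at 92.6 CPM (7.74 to 22.01 CPM in the other 4), Atg16l1 at 180.0 CPM (45.3 to 68.1 CPM in the other 4), Map1lc3b at 519 CPM (106 to 193 CPM in the other 4), Bnip3 at 711 CPM (187 to 335 CPM in the other 4), Atp6v0d1 at 108 CPM (71.1 to 80.9 CPM in the other 4), Ctsl at 4006 CPM (465 to 1036 CPM in the other 4) and Gaa at 150.1 CPM (62.2 to 75.3 CPM in the other 4). Wipi1, Ctsl and Map1lc3b are the members whose fold change between CDDP and PBS moved most when this library was left out.

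The other 10 values that stood apart were spread over single libraries. They were Becn1 in CDDP+ACBP replicate 3 (82.2 CPM, highest), Atg14 in CDDP+ACBP replicate 3 (34.5 CPM, highest), Wipi2 in CDDP+ACBP replicate 4 (94.98 CPM, highest), Hexa in CDDP+ACBP replicate 5 (67.7 CPM, highest), Atg5 in CDDP replicate 4 (33.5 CPM, highest), Neu1 in CDDP replicate 2 (59.3 CPM, highest), Gla in CRS replicate 4 (1.28 CPM, lowest), Atg16l1 in ACBP replicate 5 (47.9 CPM, highest), Ctsd in ACBP replicate 2 (259.5 CPM, highest) and Glb1 in PBS replicate 3 (12.97 CPM, highest). Neu1 in its other 4 CDDP libraries lay below all PBS libraries.

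The cisplatin effect differed between the ACBP pump and the PBS pump for 15 members by the interaction test in edgeR, at an adjusted p under 0.05. The log2 difference, the effect under ACBP minus that under PBS, was negative for Atg13 (-0.88), Atg12 (-0.99), Map1lc3a (-1.14), Map1lc3b (-1.07), Gabarap (-0.96), Sqstm1 (-1.52), Lamp1 (-1.0), Atp6v0d1 (-0.70), Ctsd (-0.94), Ctsl (-2.66), Ctsz (-1.04) and Psap (-0.99). It was positive for Tfeb (0.90), Mcoln1 (0.62) and Neu1 (0.55). Only Atg12, Sqstm1, Tfeb, Mcoln1, Ctsl and Ctsz kept this call under every alternative and with each library left out. With 20 libraries left out in turn, Lamp1 kept it in 8 fits and Map1lc3b in 9. Of 7 alternatives, Lamp1 kept it in 4, Map1lc3b in 2, and Ctsd and Psap in 5 each. Under the ACBP pump none of these 15 members passed in CDDP+ACBP against ACBP, where edgeR called 0 of 40 members, DESeq2 0 and limma voom 0, and 0 had an unadjusted p under 0.05. The macrophage marker sums were 215 to 310.3 CPM in CDDP+ACBP and 268 to 391 CPM in CDDP, and the neutrophil and monocyte sums 6.35 to 16.04 CPM in CDDP+ACBP and 24.1 to 87.7 CPM in CDDP; their part in the interaction was not tested.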

How the results depend on the processing

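No paired analysis was possible because the labels number the libraries from 1 to 30 and pair none across groups. Members called moved by over 1.5 times under 4 settings. With only the compared groups in the fit, which leaves fewer libraries to estimate the spread, CDDP against PBS had 17 calls in place of 26, CDDP+ACBP against CDDP 6 in place of 20 and CDDP against CRS 10 in place of 18. With limma voom and quality weights, CRS against PBS had 5 in place of 0 and CDDP+ACBP against CDDP 10 in place of 20. Without the 7 libraries with much muscle or brain RNA, a choice made after seeing the data, the interaction of CDDP and ACBP had 6 in place of 15; the cause was not tested. With single libraries left out, the counts ran from 22 to 28 in CDDP against PBS, 17 to 21 in CDDP+ACBP against CDDP, 13 to 21 in CDDP against CRS and 9 to 16 for the interaction, where the 9 without CDDP+ACBP replicate 4 is the fourth such setting, and stayed at 0 (lowest 0, highest 0) in the other 6 comparisons. In some of the fits with a library left out Gpnmb passed the filter, so 41 members were tested. Wipi1 changed sign in limma voom, at -0.25 in CDDP against PBS and 0.36 in CDDP+ACBP against CDDP. No other member with a call changed sign.

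Over all genes, CRS against PBS had 23 calls, with 265 in the fit of only its groups, 82 in DESeq2, 930 in limma voom and 9 without the 7 libraries. CDDP+ACBP against CDDP had 5503, with 2217 and 3530 in the fit of only its groups and in limma voom. CDDP+ACBP against ACBP had 21, with 2, 91, 70 and 0 in those 4 settings, and 5 to 39 with a library left out. CDDP against CRS had 5639, with 3709 in the fit of only its groups, and the interaction of CDDP and ACBP 3216, with 1722 without the 7 libraries. The comparisons with 0 genes called had at most 9 (ACBP against PBS), 3 (CRS+ACBP against CRS), 20 (CRS+ACBP against ACBP) and 4 (interaction of CRS and ACBP) under any setting. Members under about 5 CPM, such as Gla and Gpnmb, rest on few reads.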
